A study of Mus musculus with 8 samples.

Results

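Imprinted genes were followed in hearts of mouse embryos at embryonic day 9.5. They were taken as 40 listed genes, found in the deposited table through the Ensembl identifiers that GENCODE M21 gives for their symbols. Of the 40 genes, 36 had a row among the 13637 genes of the table. Slc22a18, Kcnk9, Snrpn and Snurf had no row under those identifiers and were not analysed here. The 4 samples called GOF carry the genotype Bmp2GOF;Nkx2.5-Cre, a gain-of-function allele of the BMP ligand gene Bmp2 combined with a Cre recombinase driven from the cardiac gene Nkx2-5. The other 4 samples are wild type (WT) of the same stage and tissue, and polyA RNA was sequenced in each. The labels give no strain and do not say whether a sample was 1 heart or a pool, so the p-values rest on a spread between samples that may be technical. The effects of the Cre and of the Bmp2 allele cannot be told apart in this design.

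An imprinted gene is expressed mainly from the allele of a single parent, because DNA methylation laid down in the egg or the sperm marks the alleles differently. Most imprinted genes lie in clusters that share a control region, and in several clusters a long noncoding RNA made from the paternal allele silences protein-coding neighbours on the same chromosome. Many of them set the growth of the embryo and placenta, with paternally expressed genes such as Igf2 promoting growth and maternally expressed genes such as Igf2r, Cdkn1c and Grb10 restraining it. In the embryonic heart, IGF2 from the epicardium and endocardium drives growth of the ventricular wall. The table holds a single value per gene, so it does not tell the maternal from the paternal allele. Of the 36 genes measured, 18 are paternally expressed, 17 are maternally expressed and Gnas has transcripts of both kinds. For 8 of the 36, including Gnas, imprinting is known only or mainly in some tissues such as brain or placenta.

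The promoters of Mest, Meg3 and Peg3 are shown because these genes carry main changes described below and because each promoter is methylated on the silent parental allele. The sequences are from RefSeq on GRCm38.p6. Each is the 250 bases before the transcription start, 5′ to 3′ on the gene's strand, with the dinucleotide CG, the target of the methylation, in capitals. For Mest and Meg3, which have 3 and 2 listed starts, the first start with the most CG is shown.
Mest promoter, chr6:30737800-30738049, plus strand: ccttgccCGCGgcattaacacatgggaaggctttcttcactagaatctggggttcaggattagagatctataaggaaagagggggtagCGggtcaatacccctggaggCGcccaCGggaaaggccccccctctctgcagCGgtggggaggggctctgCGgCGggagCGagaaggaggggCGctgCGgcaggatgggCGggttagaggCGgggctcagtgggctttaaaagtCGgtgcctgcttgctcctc
Meg3 promoter, chr12:109540746-109540995, plus strand: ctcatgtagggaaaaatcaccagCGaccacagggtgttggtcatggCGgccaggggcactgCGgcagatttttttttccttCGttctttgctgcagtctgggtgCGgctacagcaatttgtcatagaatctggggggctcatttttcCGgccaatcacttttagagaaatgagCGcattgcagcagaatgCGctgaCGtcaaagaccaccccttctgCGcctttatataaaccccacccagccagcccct
Peg3 promoter, chr7:6730420-6730669, minus strand: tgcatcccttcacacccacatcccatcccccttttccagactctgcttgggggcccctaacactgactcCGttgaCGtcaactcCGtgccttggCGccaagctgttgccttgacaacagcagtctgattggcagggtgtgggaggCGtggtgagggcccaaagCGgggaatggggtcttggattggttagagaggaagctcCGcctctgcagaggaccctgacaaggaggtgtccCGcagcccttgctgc

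These windows hold 14, 10 and 8 CG in that order, and the Peg3 window shares 163 bases with that of the divergent gene Usp29. Promoters were listed for 27 of the 36 genes, and not for Cdkn1c, H19, Peg10 or Sgce among others. Taking the start with the most matches of each gene, the median was 12 CG, against 6 over 27025 genes. Motifs were searched on both strands of the same windows. The letters TGCCGC, bound when methylated by the imprint-protecting zinc finger protein ZFP57, occurred in 5 of the 27 (Mest, Meg3, Copg2, Zim1 and Plagl1) and in 9.84% of all genes. The hypoxia response cores ACGTG or GCGTG occurred in 17 of the 27 and in 41.5% of all genes. The BMP-Smad element GGCGCC occurred in 6, against 10.8% of all genes, and GGGGCCCC, a consensus of the imprinted factor PLAGL1, in 2 (Peg3 and Ppp1r9a), against 1.03%. All genes are here the 27025 with a listed promoter, not only those of the deposited table. Except for GGGGCCCC, the letters searched contain CG, of which the windows of the 27 hold more. The part of that in the shares was not tested, so no enrichment is read from them.

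Several imprinted transcripts also carry microRNAs, and those inside Mest, Meg3 and H19 are shown because they are made from transcripts of these genes, of which Mest fell, Meg3 rose and H19 did not pass the test. RefSeq lists 2 mature microRNAs in Mest, 3 in Meg3, 2 in H19, 6 in Rian and 26 in Mirg on the strand of the host. The microRNAs themselves were not measured. Capitals mark the seed, bases 2 to 8 from the 5′ end, and no seed is shared among those shown.
mmu-miR-335-5p in Mest: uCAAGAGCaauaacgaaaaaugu
mmu-miR-335-3p in Mest: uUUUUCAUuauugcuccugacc
mmu-miR-770-5p in Meg3: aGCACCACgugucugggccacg
mmu-miR-770-3p in Meg3: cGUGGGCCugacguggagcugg
mmu-miR-1906 in Meg3: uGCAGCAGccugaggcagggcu
mmu-miR-675-5p in H19: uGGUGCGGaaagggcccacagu
mmu-miR-675-3p in H19: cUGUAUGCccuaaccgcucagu

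Values are the normalized reads that the authors deposited, and a change is the log2 fold change of GOF against WT on the scale log2(value + 1), from limma over all 13637 genes. A gene passed the test when its p, adjusted by Benjamini-Hochberg across that whole set, was under 0.05. By that rule 28.2% of all genes were higher in GOF and 28.2% were lower. The reads implied by the values were 13182009 to 17927674 per GOF sample and 12287069 to 16697480 per WT sample. Bmp2 was at 99.1 ± 7.21 normalized reads in GOF and 56.3 ± 5.46 in WT (mean ± SD of n = 4), a change of 0.81 (limma adjusted p = 2.91e-07, and p = 0.0286 in an exact two-sided permutation test, the lowest p possible with these group sizes). The cardiac factor gene Nkx2-5 rose by 0.35. On the second principal component GOF sample 1 stood apart from the other samples, and its summed level of 11 erythroid markers was 14890 normalized reads, against 2625 to 9272 in the other 7 samples. The 14 cardiomyocyte markers were all in the table and summed to 38890 to 46010 in GOF and 37560 to 42220 in WT. Of 18 markers of yolk sac and liver endoderm only 7 were in the table, with no row for Alb, Ttr, Apoa1 or Apob, and they summed to 191 to 208 in GOF and 133 to 169 in WT. Most of that sum was Apoe, at 182 ± 7.71 in GOF and 121 ± 13.1 in WT (mean ± SD of n = 4). Of the 7, Apoe and Rbp4 rose and 5 did not pass, among them Afp at 1.54 ± 1.35 in GOF and 12.9 ± 17.9 in WT. The 16 markers of cushion and epicardial mesenchyme summed to 3438 to 4269 in GOF and 2778 to 2835 in WT, with 10 higher and 0 lower (limma, also 0 lower at an unadjusted p under 0.05). Markers of pharyngeal and second heart field, of neural and of endothelial cells summed to 230 to 260, 237 to 298 and 1077 to 1294 in GOF, and to 229 to 249, 262 to 280 and 1292 to 1355 in WT.

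Of the 36 imprinted genes, 11 were higher in GOF, 9 were lower and 16 did not pass. The higher genes numbered 7 without GOF sample 3 or without WT sample 2. The share called over all genes was 56.3%, so 20 of 36 is close to the background, and the median change was -0.02 against -0.00198 over all genes. In bulk hearts, fewer cells that express a gene and less RNA per cell cannot be told apart, for these genes and all that follow. Changes of at least 0.5 in size past the threshold were found for 5 of the 36 and for 17.8% of all genes. Cdkn1c and Mest fell and Meg3, Dcn and Mirg rose by that much. The groups did not overlap for 13 of the 36, against 50.9% of all genes. Of the 20 calls, 11 held under all 16 alternative settings, those of Meg3, Mirg, Dcn, Sgce, Peg3 and Airn among the rises and of Cdkn1c, Mest, Ndn, Nap1l4 and Ppp1r9a among the falls.

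**Figure D1:**
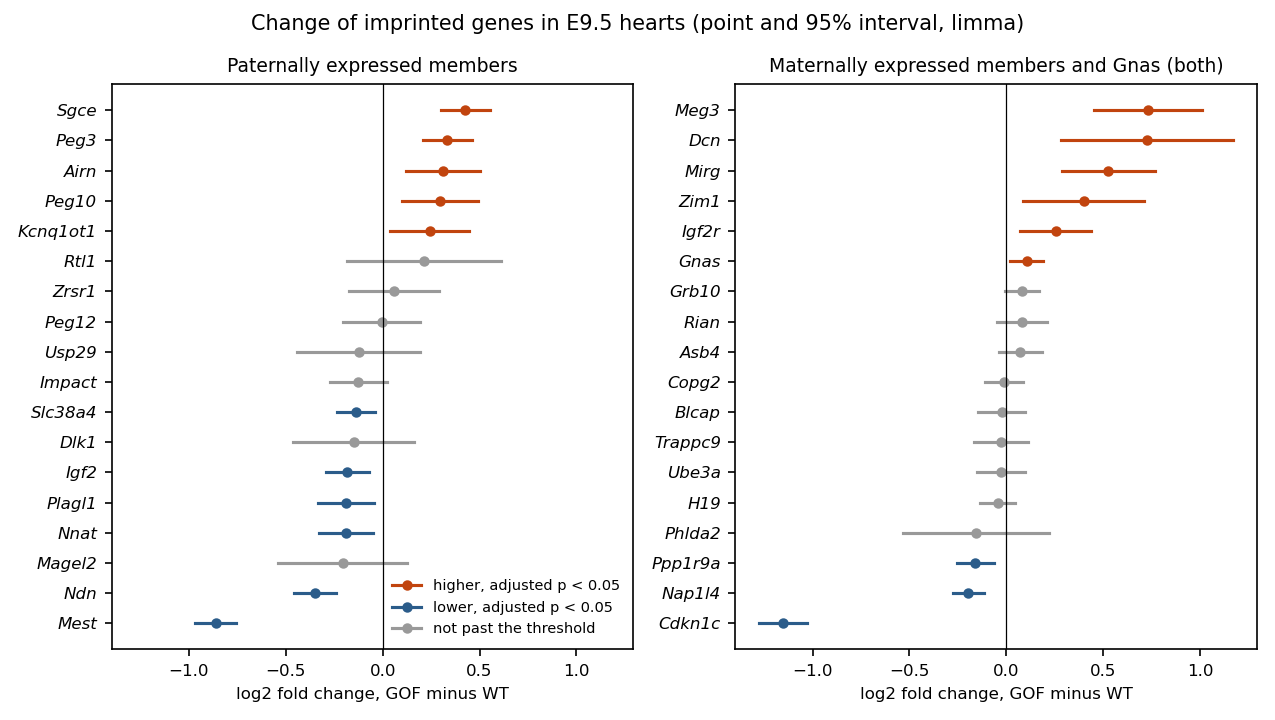
Log2 fold change of GOF minus WT for the 36 imprinted genes (x axis), with paternally expressed genes on the left and maternally expressed genes and Gnas on the right, each with its 95% interval from limma. Mest and Cdkn1c stand lowest in their panels at -0.86 and -1.15, while most genes lie within 0.5 of 0.

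Genes expressed from the maternal and from the paternal allele moved both ways. Of the 18 paternally expressed genes 5 rose and 6 fell, with a median change of -0.13. Of the 17 maternally expressed genes 5 rose and 3 fell, with a median of -0.01. Over all genes 28.2% rose and 28.2% fell. The rises on the paternal side were those of Sgce, Peg3, Airn, Peg10 and Kcnq1ot1, and the falls those of Mest, Ndn, Nnat, Plagl1, Igf2 and Slc38a4. On the maternal side Meg3, Dcn, Mirg, Zim1 and Igf2r rose and Cdkn1c, Nap1l4 and Ppp1r9a fell. For all 18 paternally but only 10 of the 17 maternally expressed genes, imprinting is not known only or mainly in some tissues. Of those 10 maternally expressed genes 4 rose and 1 fell, with a median of 0.08. The rise of Dcn and the falls of Nap1l4 and Ppp1r9a lie outside the 10. No test between the classes was made. Leaving out GOF sample 1 left 3 paternally expressed genes higher, and leaving out GOF sample 3 or WT sample 2 left 3 maternally expressed genes higher. With columns set to equal totals without mitochondrial genes, 3 paternally and 3 maternally expressed genes were higher and the medians were -0.175 and -0.0766.

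**Figure D2:**
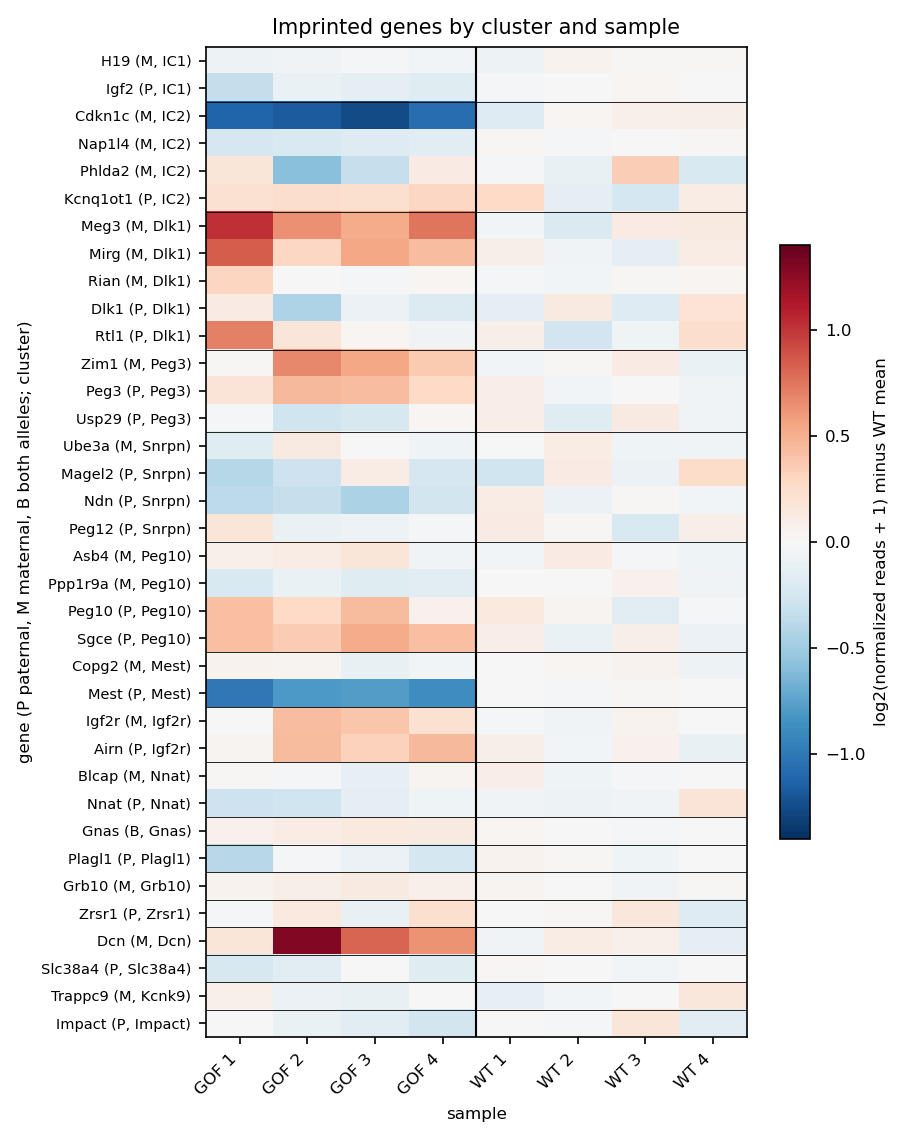
Level of each imprinted gene in each sample, as log2(normalized reads + 1) minus the WT mean, with genes in rows by cluster and samples in columns. Cdkn1c and Mest are low in all 4 GOF samples and Meg3 is high in all 4, while GOF sample 1 differs from the other GOF samples in genes such as Dcn, Zim1 and Igf2r.

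The cluster on distal chromosome 7 holds the growth factor gene Igf2 and the noncoding RNA H19, which share enhancers and are expressed from opposite alleles. Both were among the most abundant transcripts of the table, H19 at rank 4 and Igf2 at rank 7 by normalized reads, and at ranks 8 and 48 per kilobase of exon. H19 (ENSMUSG00000000031, chr7:142575529-142578143, GRCm38, minus strand) was at 7042, 7138, 7261 and 7190 normalized reads in GOF samples 1 to 4 and at 7024, 7631, 7445 and 7453 in WT samples 1 to 4. The groups overlapped and the change was -0.05 with a 95% interval of -0.14 to 0.05 (limma adjusted p = 0.394).

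Igf2 (ENSMUSG00000048583, chr7:142650766-142666816, minus strand) was at 3893, 4584, 4500 and 4359 in GOF and at 4864, 4872, 5017 and 4869 in WT. Every GOF sample lay below every WT sample, and GOF sample 1 was the lowest. Igf2 fell by 0.18 on the log2 scale ± 0.05 (SE, limma adjusted p = 0.00702), to 0.883 times the WT mean. With quantile normalization Igf2 did not pass and its change was 0.06 (limma adjusted p = 0.789). H19 did pass there, at 0.22 (limma adjusted p = 0.0222), and it also passed in the opposite direction with equal totals without mitochondrial genes, at -0.11 (limma adjusted p = 0.025), so no direction is given for H19. Igf2os, an antisense transcript that overlaps Igf2 by 7124 bases, was at 69.5 ± 4.78 in GOF and 111 ± 7.01 in WT (mean ± SD of n = 4, change -0.66, limma adjusted p = 1.37e-07). Whether the reads were counted by strand is not given in the sources used here, so reads of Igf2 and Igf2os may be shared.

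The neighbouring cluster under the control region of the noncoding RNA Kcnq1ot1 held the largest change among the 36 imprinted genes. Cdkn1c (ENSMUSG00000037664, chr7:143458339-143461050, minus strand) encodes p57, an inhibitor of cyclin-dependent kinases that is silenced on the paternal chromosome by Kcnq1ot1. It was at 594, 575, 543 and 615 normalized reads in GOF and at 1144, 1315, 1358 and 1366 in WT. All GOF samples lay far below all WT samples, with little spread within GOF. The WT mean was 2.23 times the GOF mean, and the change of -1.15 with a standard error of 0.06 passed the threshold (limma adjusted p = 3.3e-10).

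Kcnq1ot1, the paternally expressed RNA of that cluster, was at 25.4, 26.0, 25.5 and 26.8 in GOF and at 26.6, 19.7, 18.2 and 23.5 in WT. The groups overlapped through WT sample 1, and the rise of 0.24 (limma adjusted p = 0.0411) was lost in 10 of 16 alternatives, among them without WT sample 3 (0.16, adjusted p = 0.138). It lies within Kcnq1 on the other strand, and Kcnq1 also rose by 0.37. Nap1l4, a histone chaperone gene at the edge of the cluster, was at 228, 233, 238 and 240 in GOF and at 272, 263, 269 and 272 in WT, without overlap. Its change was -0.20 (limma adjusted p = 0.000415). Phlda2, a growth-restraining gene of the placenta, was low at 2.68 ± 0.883 in GOF and 3.05 ± 0.712 in WT (mean ± SD of n = 4), and its change of -0.16 did not pass (95% interval -0.53 to 0.22).

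In the Dlk1 cluster of chromosome 12, 2 of the 3 maternally expressed noncoding RNAs rose and neither paternally expressed coding gene passed. Meg3 (ENSMUSG00000021268, chr12:109541001-109571726, plus strand), the first RNA of the cluster, was at 364, 281, 258 and 302 normalized reads in GOF and at 175, 155, 195 and 195 in WT. The groups did not overlap, and GOF sample 1 was the highest. Meg3 rose by 0.73 ± 0.12 (SE, limma adjusted p = 0.00114), and by 0.64 without GOF sample 1. Mirg, the host of most of the microRNAs of the cluster, was at 16.7, 11.0, 13.4 and 12.3 in GOF and at 9.43, 8.50, 7.95 and 9.58 in WT. It rose by 0.53 without overlap of the groups (limma adjusted p = 0.000922).

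Rian, the host of small nucleolar RNAs between Meg3 and Mirg, was at 374, 305, 301 and 308 in GOF and at 300, 296, 307 and 310 in WT. Only GOF sample 1 stood above the WT samples, and the change of 0.08 did not pass (95% interval -0.05 to 0.21). Dlk1, a membrane protein related to Notch ligands, was at 93.7, 64.0, 81.8 and 75.5 in GOF and at 79.2, 94.8, 76.2 and 98.7 in WT. These groups overlapped, with a change of -0.15 (95% interval -0.46 to 0.16). Rtl1, a gene derived from a retrotransposon, was near the lower limit of the table at 1.28 ± 0.585 in GOF and 0.941 ± 0.292 in WT (mean ± SD of n = 4), and did not pass either.

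Mest (ENSMUSG00000051855, chr6:30723547-30748465, plus strand), a paternally expressed gene for a protein of the hydrolase fold family, was at 1577, 1808, 1833 and 1727 in GOF and at 3161, 3108, 3179 and 3154 in WT. The groups were far apart, and the WT samples hardly differed among themselves. The WT mean was 1.81 times the GOF mean, with a change of -0.86 and a standard error of 0.05 (limma adjusted p = 1.02e-09). Copg2, a coat protein gene of the Golgi that overlaps the end of Mest by 912 bases on the other strand, was at 116 ± 5.85 in GOF and 117 ± 4.2 in WT (mean ± SD of n = 4). Its change of -0.01 did not pass (95% interval -0.11 to 0.09).

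Genes close to Mest that are on no imprinted list used here were lower as well. Within 500 kb of Mest or Copg2, 6 of 9 such genes fell and 1 rose, with a median change of -0.40, where 28.2% of all genes fell and 28.2% rose. The carboxypeptidase genes Cpa5 and Cpa1 changed by -1.05 and -0.82, with Cpa1 at 1.38 ± 0.303 in GOF and 3.16 ± 0.161 in WT (mean ± SD of n = 4). Cpa5 was at 0.668 ± 0.392 in GOF and 2.38 ± 0.315 in WT. Every gene of the table reached 1 normalized read in 4 or more samples, and Cpa5 did so through WT, where it is high. Its fall, which is in the count of 6, is thus not independent of that rule. Cep41, a ciliary protein gene whose start lies 29.8 kb from that of Mest, changed by -0.49. These 3 were chosen after their values were seen. Over all imprinted genes, 24 of 101 neighbours within 500 kb rose and 34 fell, 57.43% in all, which is close to the 56.3% of the whole table. These neighbours are on no imprinted list used here, but some are transcripts that overlap imprinted genes, such as Igf2os and Snhg14, and may be imprinted themselves.

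**Figure D3:**
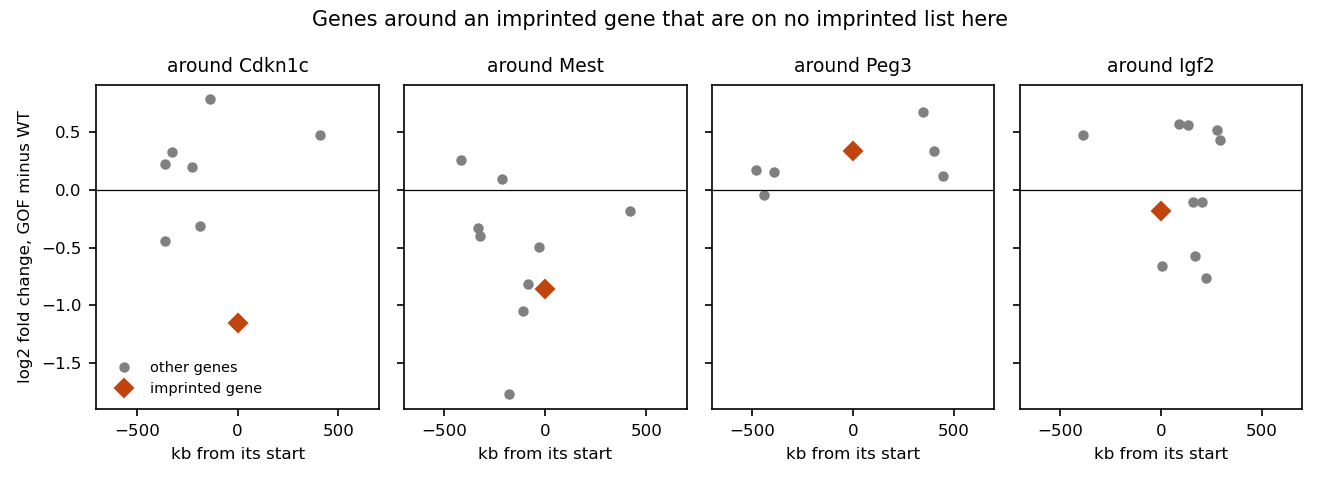
Log2 fold change of GOF minus WT (y axis) for genes around Cdkn1c, Mest, Peg3 and Igf2, by distance of their starts in kb along the strand of the imprinted gene (x axis). The imprinted gene is the diamond at 0. Around Mest most neighbours lie below 0, while the neighbours of Cdkn1c lie on both sides.

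The Peg3 cluster of proximal chromosome 7 encodes zinc finger proteins. Peg3 (ENSMUSG00000002265, chr7:6703892-6730431, minus strand), a paternally expressed gene that in mouse affects growth and maternal behaviour, was at 1188, 1443, 1415 and 1279 in GOF and at 1122, 1024, 1053 and 1013 in WT. All GOF samples lay above all WT samples. Peg3 rose by 0.33 ± 0.06 (SE, limma adjusted p = 0.000214). Zim1, its maternally expressed neighbour, was at 56.3, 89.2, 81.5 and 71.8 in GOF and at 53.9, 56.4, 60.2 and 52.2 in WT. GOF sample 1 lay among the WT samples and the other GOF samples above them. Zim1 rose by 0.40 (limma adjusted p = 0.0352). Omitting any of GOF samples 3 and 4 and WT samples 1, 2 and 4 ended the call (adjusted p 0.0663 to 0.0846), as did equal totals without mitochondrial genes (adjusted p = 0.0518), while without GOF sample 1 the rise was 0.53 (adjusted p = 1e-05). Usp29, a ubiquitin protease gene that starts from the region of the Peg3 promoter shown above, was at 1.11 ± 0.223 in GOF and 1.3 ± 0.214 in WT (mean ± SD of n = 4). It did not pass, with a change of -0.12.

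Sgce and Peg10 on chromosome 6 start next to each other on opposite strands, are both paternally expressed, and both rose. Sgce, which encodes the membrane protein epsilon-sarcoglycan, was at 49.0, 46.6, 52.3 and 48.8 in GOF and at 38.7, 34.0, 38.5 and 34.3 in WT, without overlap. It rose by 0.43 ± 0.06 (SE, limma adjusted p = 1.88e-05). Peg10, a retrotransposon-derived gene needed for the placenta, was at 369, 335, 375 and 288 in GOF and at 303, 285, 250 and 271 in WT. Only GOF sample 4 lay within the range of WT. Its rise of 0.30 (limma adjusted p = 0.0152) was lost without GOF sample 1 (0.26, adjusted p = 0.0681), with quantile normalization (adjusted p = 0.0677) and with equal totals without mitochondrial genes (adjusted p = 0.0636).

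Neither maternally expressed gene of the same cluster rose. Ppp1r9a, for the actin-binding protein neurabin, was at 61.8, 67.1, 63.8 and 64.4 in GOF and at 71.7, 71.7, 74.9 and 69.2 in WT. It was lower in each GOF sample than in any WT sample, with a change of -0.16 (limma adjusted p = 0.00748). Asb4, a component of a ubiquitin ligase, was at 111 ± 6.69 in GOF and 105 ± 5.96 in WT (mean ± SD of n = 4), and its change of 0.07 did not pass.

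The Igf2r cluster holds the receptor that clears IGF2 and, on the other strand, the paternally expressed noncoding RNA Airn that silences Igf2r in cis. Igf2r (ENSMUSG00000023830, chr17:12682406-12769664, minus strand) was at 2817, 3814, 3708 and 3282 in GOF and at 2810, 2742, 2942 and 2851 in WT. GOF sample 1 lay within the WT range and the other GOF samples above it. Igf2r rose by 0.25 (limma adjusted p = 0.021), and by 0.34 without GOF sample 1, but it did not pass without GOF sample 3 or without WT sample 2 (adjusted p 0.0554 and 0.0524). The rise of Igf2r was 0.07 with quantile normalization (adjusted p = 0.418) and 0.19 with equal totals without mitochondrial genes (adjusted p = 0.0563), and passed in neither. Airn was at 17.9, 24.0, 22.0 and 24.2 in GOF and at 18.5, 16.9, 18.1 and 16.1 in WT. It rose by 0.31 (limma adjusted p = 0.00749), again with GOF sample 1 inside the WT range. The genes overlap by 28354 bases, so reads may be shared between them.

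In the Prader-Willi region of chromosome 7, 1 of the 4 listed genes measured fell and none of them rose (limma, also 0 higher at an unadjusted p under 0.05). Ndn, which encodes the MAGE family protein necdin, was at 104, 107, 98.7 and 112 in GOF and at 144, 127, 136 and 130 in WT. Every GOF sample was below every WT sample, and Ndn fell by 0.35 on the log2 scale ± 0.05 (SE, limma adjusted p = 2.99e-05). Its relative Magel2 had means of 1.92 ± 0.46 (GOF) and 2.37 ± 0.537 (WT), and Peg12 had means of 12.2 ± 1.15 and 12.3 ± 1.32 (SD, n = 4). Ube3a, the ubiquitin ligase gene that is imprinted in neurons, was at 83.1 ± 7.05 and 84.6 ± 4.47. None of these 3 passed. Snhg14, a transcript not among the 40 and chosen after its values were seen, overlaps Ube3a by 3613 bases on the other strand and rose. It was at 76.9 ± 6.26 in GOF and 68.4 ± 1.53 in WT (change 0.16, limma adjusted p = 0.0179). Gm38393 (ENSMUSG00000000948), also not among the 40, overlaps the positions of Snrpn and Snurf on the same strand, by 22570 and 9601 bases. Gm38393 was at 76.3 ± 0.859 in GOF and 71.5 ± 2.64 in WT, with a change of 0.09 that did not pass (limma adjusted p = 0.0794).

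**Figure D4:**
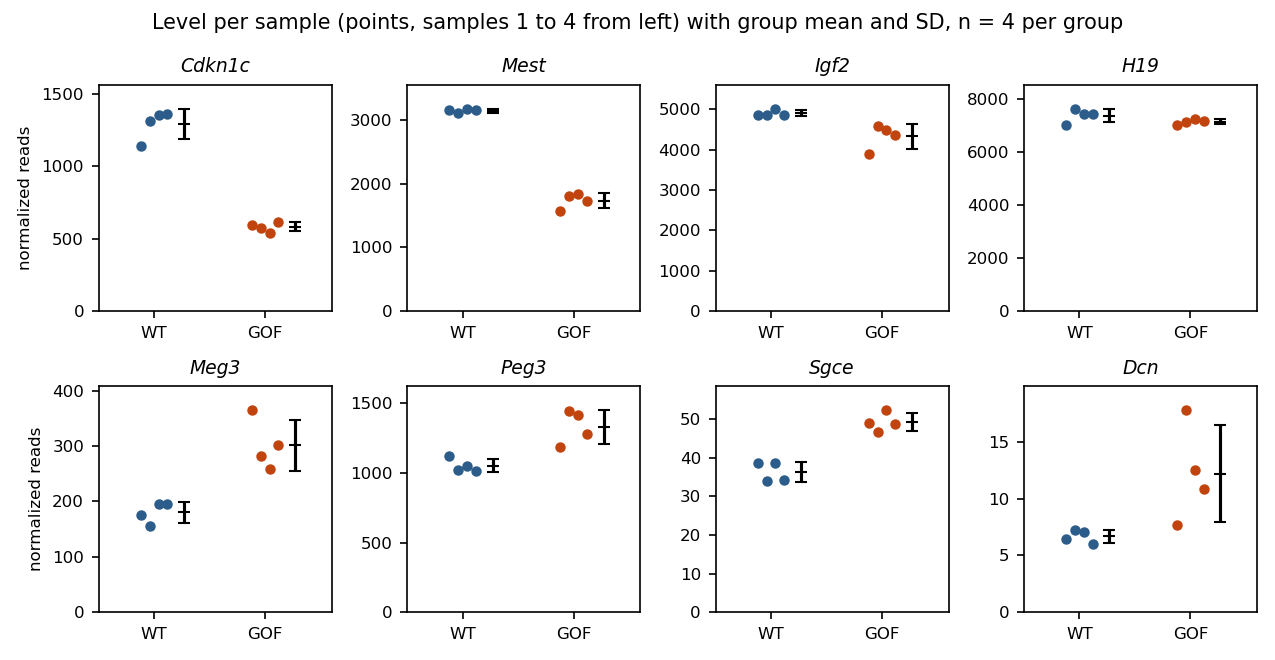
Normalized reads (y axis, from 0) of 8 imprinted genes in the 4 WT and 4 GOF samples, with 1 point per sample and the mean and SD beside the points. Cdkn1c and Mest are separated by a wide gap, Igf2 and H19 by little or none, and the GOF values of Dcn run from 7.64 to 17.8.

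Among the imprinted genes outside these clusters, Dcn, which encodes the matrix proteoglycan decorin of fibroblasts and is imprinted in placenta, was low and varied between the GOF samples. It was at 7.64, 17.8, 12.5 and 10.8 in GOF and at 6.42, 7.24, 7.06 and 5.99 in WT. All GOF samples were above all WT samples, GOF sample 1 by the least. Dcn rose by 0.73 ± 0.20 (SE, limma adjusted p = 0.0102), and by 0.91 without GOF sample 1. Lum, which encodes the related proteoglycan lumican and starts 85.5 kb from Dcn, was at 5.22 ± 5.69 in GOF and 1.16 ± 0.385 in WT (mean ± SD of n = 4) and did not pass. The summed mesenchyme markers were also highest in GOF sample 2, at 4269, and lowest among GOF in sample 1, at 3438. Vcan and Vim made up most of that sum, at means of 1556 and 1298 in GOF. The smaller ones did not all follow it, with Col1a1 and Col3a1 highest in GOF sample 2 but Postn and Lum in GOF sample 3. The part of these markers in the change of Dcn was not tested.

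Grb10, an adaptor that restrains insulin and IGF signalling, was at 1966, 2010, 2086 and 2004 in GOF and at 1956, 1901, 1836 and 1929 in WT. The GOF samples lay just above the WT samples, but the change of 0.08 did not pass (limma adjusted p = 0.104). Without GOF sample 1 it passed at 0.09 (adjusted p = 0.0352), and with quantile normalization at 0.18 (adjusted p = 0.0019). Plagl1, a zinc finger factor that regulates other imprinted genes, was at 491, 631, 608 and 542 in GOF and at 665, 653, 618 and 640 in WT. The groups overlapped, and the fall of 0.19 (change -0.19, limma adjusted p = 0.0299) was lost on omitting GOF sample 4 or any of WT samples 1, 2 and 4 (adjusted p 0.059 to 0.0816). Slc38a4, an amino acid transporter gene, changed by -0.14 (limma adjusted p = 0.0205, and 0.0513 and 0.055 without GOF sample 4 or WT sample 1). Nnat, which encodes the membrane protein neuronatin, changed by -0.19 (limma adjusted p = 0.0237), and lost its call on omitting any of GOF samples 1 and 2 and WT sample 4 (adjusted p 0.0585 to 0.0904). Without the trend and robust prior in limma, Plagl1, Nnat and Slc38a4 did not pass (adjusted p 0.0762, 0.0656 and 0.0567).

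Gnas, which encodes the stimulatory G protein subunit, was at 1241 ± 31.2 in GOF and 1154 ± 14.4 in WT (mean ± SD of n = 4). Its rise of 0.10 (limma adjusted p = 0.0333) was lost in 11 of 16 alternatives, and it held without GOF sample 1 or 2 only among the samples left out. Impact, a regulator of translation, was at 57.8 ± 4.16 and 63.3 ± 6.13 and did not pass (limma adjusted p = 0.132), but passed without WT sample 4 (-0.18, adjusted p = 0.0354) and with equal totals without mitochondrial genes (-0.19, adjusted p = 0.029). The splicing factor gene Zrsr1, Blcap and the trafficking gene Trappc9 had changes between -0.03 and 0.06 that did not pass (adjusted p 0.679 to 0.752).

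Ratios between genes listed as expressed from opposite alleles of a cluster were taken in each sample, as a description with no test. For Copg2 and Blcap imprinting is known only or mainly in some tissues, so their ratios may not compare opposite alleles in heart. The ratio of Cdkn1c to Kcnq1ot1 was 23.4, 22.1, 21.2 and 23.0 in GOF and 43.0, 66.9, 74.6 and 58.2 in WT. All GOF ratios lay below all WT ratios. The ratio of Meg3 to Dlk1 was 3.86 ± 0.519 in GOF and 2.10 ± 0.388 in WT (mean ± SD of n = 4), and that of Copg2 to Mest 0.0673 ± 0.00725 and 0.0372 ± 0.00137, both without overlap. Copg2 itself changed by -0.01, so the ratio of Copg2 to Mest mostly repeats the fall of Mest. The other 5 ratios overlapped. That of Igf2r to Airn was 155 ± 13.9 in GOF and 163 ± 10.4 in WT, that of Zim1 to Peg3 0.0558 ± 0.00605 and 0.0529 ± 0.00399, and that of H19 to Igf2 1.66 ± 0.108 and 1.51 ± 0.0535.

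**Figure D5:**
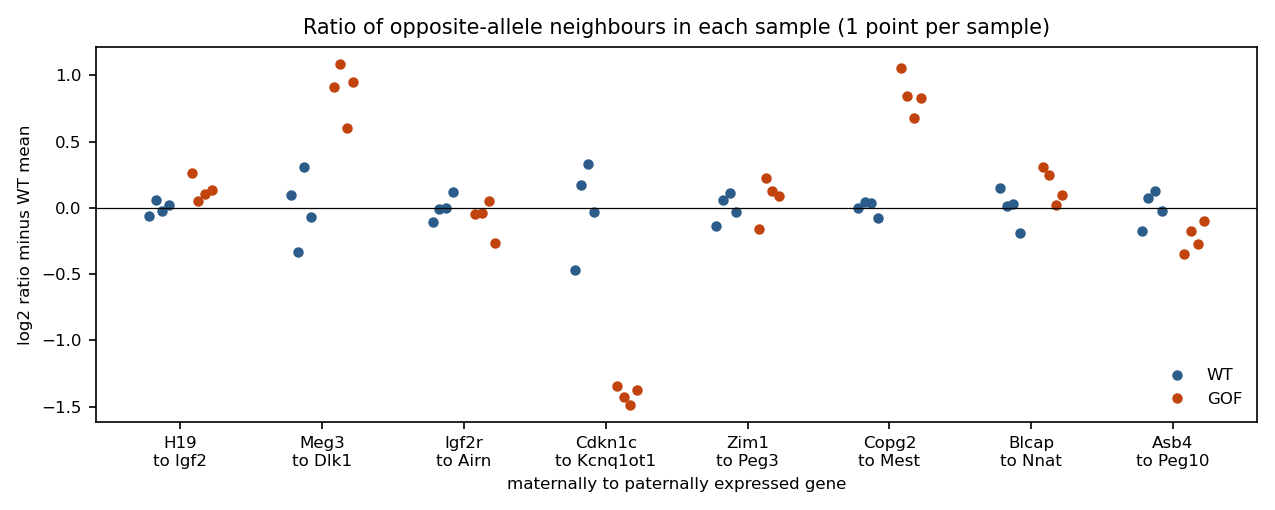
Log2 ratio of a maternally to a paternally expressed gene of the same cluster in each sample, minus the WT mean of that ratio (y axis), for 8 pairs. The GOF samples lie apart from WT for Meg3 to Dlk1, Cdkn1c to Kcnq1ot1 and Copg2 to Mest, and overlap WT for the other pairs.

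Factors that write, erase or protect the methylation at imprints moved in both directions. Of 28 listed regulators, 25 were in the table, 8 rose and 10 fell, 72.0% in all against 56.3% of all genes, with a median change of -0.05. Genes for the TET enzymes, which oxidize methylated cytosine, rose. Tet2 went from 30.7 ± 2.48 in WT to 73.1 ± 3.52 in GOF (mean ± SD of n = 4, change 1.23, limma adjusted p = 1.87e-10), Tet1 rose by 0.88 and Tet3 by 0.32. Zfp57, whose protein binds the hexamer named above at methylated imprints, rose from 42.9 ± 3.89 to 61.3 ± 3.2 (change 0.51, limma adjusted p = 6.88e-06). Genes that maintain methylation at replication fell. Uhrf1 changed by -0.57, the chromatin remodeller gene Hells by -0.51 and the maintenance methyltransferase gene Dnmt1 by -0.37, from 329 ± 9.48 in WT to 255 ± 9.73 in GOF. Trim28, the partner of ZFP57, changed by -0.27.

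Of 42 other genes described as imprinted in mouse, 32 were in the table, 11 rose and 12 fell, 71.88% in all against 56.3% of all genes, with a median change of 0.03. Sfmbt2, a Polycomb-related gene of the trophoblast lineage, rose to 13.5 ± 0.911 from 3.87 ± 0.245 (mean ± SD of n = 4 in normalized reads, change 1.57, limma adjusted p = 2.06e-09). Ascl2, a transcription factor of the trophoblast in the Kcnq1ot1 cluster, was low in both groups at 2.43 ± 0.373 in GOF and 0.151 ± 0.0527 in WT (normalized reads), and passed (limma adjusted p = 3.34e-07). Its WT values are close to what 3 reads are worth, so no fold is given. Every gene of the table reached 1 normalized read in 4 or more samples, and Ascl2 did so in GOF only. Its row is thus present through the group where Ascl2 is high, and its p is no independent support for a rise. Adam23 and Qpct rose by 1.38 and 1.06. Phactr2, Ddc and Commd1 changed by -0.43, -0.46 and -0.35, and Klf14, near Mest on chromosome 6, by -0.93 from a low level of 2.70 ± 0.237. Klf14 was at 1.01 ± 0.634 in GOF, and only in WT did all 4 samples reach 1 normalized read. The same limit therefore holds for its fall.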

How the data were processed

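PolyA RNA of 4 GOF and 4 WT heart samples was sequenced, and the table the authors deposited holds a normalized signal (normalized reads) for 13637 Ensembl genes. RSEM 1.2.3, cutadapt 1.6, CASAVA 1.8.2, FastQC and the build GRCm38 are listed in the submitters' processing notes, without roles. How the signal was normalized, the annotation, any filter and the strand setting are, in the sources used here, not given. Each value was a fixed amount per library times the sum of 0.5 and a whole number (within 0.01 of a read, 100% of values), and every gene reached 1 normalized read in 4 or more samples. At this depth 3 reads are worth 0.17 to 0.242 normalized reads. No count model was run on the reads these values imply, and the normalized signal was tested as deposited.

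GENCODE M21 (GRCm38) gave names and positions for 13554 of the 13637 identifiers. The log2(value + 1) scale was fitted in limma 3.58.1 (R 4.3.3, trend and robust prior), two-sided, with p-values adjusted by Benjamini-Hochberg over all genes. The script was tested on simulated data. Replicate numbers were not used to pair samples. No pair of samples within a group agreed within sampling noise (chi-square per degree of freedom 3.485 to 18.99). Every measured gene of the 40 is named, with the 4 genes of smallest p in each direction from the lists of regulators and of other imprinted genes. The genes and lists were chosen with earlier results of these data known. Alternatives were 2 other pseudocounts, a filter of 5 normalized reads, 3 scalings, limma without trend and robust prior, a replicate block, and leaving out each of the 8 samples.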

Additional observations from a re-analysis of the deposited data

Results flagged for a closer look

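Within the groups of 4 samples, 3 of 72 sets of values had a sample far from the other 3, and chance flags about 1 in 20. Rian was at 374 normalized reads in GOF sample 1, against 301 to 308 in the other GOF samples. Igf2 was at 5017 in WT sample 3, against 4864 to 4872 in the other WT samples. Nnat was at 72.5 in WT sample 4, against 60.9 to 61.8 in the others.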

How the results depend on the processing

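The calls of 11 of the 20 called genes held in all 16 alternatives, and 13 of the 16 uncalled genes passed in none. With quantile normalization 3 paternally expressed genes were higher, the maternal and neighbour medians were 0.0281 and -0.0336, and H19, Igf2 and Zrsr1 reversed, to 0.2231, 0.05561 and -0.01925. With equal totals without mitochondrial genes, 6 imprinted genes (3 paternal, 3 maternal) and 15 neighbours were higher, Zrsr1 was at -8.694e-05, and the medians were -0.0825 (all imprinted), -0.175 (paternal), -0.0766 (maternal) and -0.0319 (neighbours). With equal totals over all genes these medians were -0.0548 (all imprinted), -0.0486 (maternal) and -0.00377 (neighbours).
A pseudocount of 5 gave a paternal median of -0.067, and a filter of 5 normalized reads medians of 0.0301 (maternal) and 0.00467 (neighbours). Without trend and robust prior 3 paternally expressed genes were lower. Over all genes the share of higher genes among the called was 49.99%, 40.23% with equal totals without mitochondrial genes and 44.32% with equal totals over all genes, and scaling moved the median of all genes by less than 0.1. Leaving out 1 sample at a time, 7 to 10 imprinted genes were higher (7 without GOF sample 3 or WT sample 2), 3 to 5 paternal, 3 to 6 maternal, and the medians were -0.0348 to 0.0108 (all imprinted), -0.119 to -0.0631 (paternal), -0.00773 to 0.0244 (maternal) and 0.0177 to 0.0418 (neighbours). Changes near 0 reversed when a sample was left out for Ube3a (-0.07708 to 0.01883), Peg12 (-0.07756 to 0.0339), Copg2 (-0.0353 to 0.01843), Blcap (-0.04451 to 0.006001), Trappc9 (-0.06426 to 0.02436) and Zrsr1 (-0.0029 to 0.1128). The cause of these differences was not tested. Same-numbered GOF and WT samples correlated at -0.137 to 0.00674 in their deviations from the group means, so the numbers do not pair them. With the replicate number as a block, 10 imprinted genes were higher and 9 lower, 3678 and 3677 of all genes, and Gnas lost its call (limma adjusted p = 0.0917). Depth limits the genes near 1 normalized read, Rtl1, Usp29 and Magel2.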

Other observations

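GOF sample 1 lay below the other 3 GOF samples for 18 of the 36 imprinted genes and above them for 10. Over all genes it lay below for 29.67% and above for 27.59%. Per kilobase of exon, the imprinted genes after H19 and Igf2 were led by Mest, Cdkn1c, Igf2r and Grb10, at ranks 71, 99, 134 and 204 in the table. In WT these stood at 799, 635, 305 and 210 normalized reads per kilobase of exon and in GOF at 440, 285, 366 and 222. The 6 noncoding RNAs among the imprinted genes (H19, Meg3, Rian, Mirg, Kcnq1ot1 and Airn) had 4 rises and 0 falls, with a median change of 0.28 (limma, 0 falls also at an unadjusted p under 0.05). Over all genes 28.2% rose, and the rise of Kcnq1ot1 was lost in 10 of 16 alternatives. With equal totals without mitochondrial genes 3 rose and 1 fell. Close to Cdkn1c, the cysteinyl-tRNA synthetase gene Cars, chosen after its values were seen, rose to 85.6 ± 3.77 from 49.1 ± 1.66 (mean ± SD of n = 4 in normalized reads, change 0.79, limma adjusted p = 2.33e-09), while Cdkn1c fell.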
